A study of Rattus norvegicus with 34 samples.

Results

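Cytochrome P450 genes mostly outside testicular steroid synthesis were followed in adult rat testis after feeding with 1 of 3 triazole fungicides. A probe set was taken when its single annotated symbol began with Cyp and a digit, and Cyp51, Cyp11a1, Cyp17a1 and Cyp26b1 were left out with their 6 probe sets. This gave 60 of 31042 probe sets, which stand for 54 of 14217 named genes, among them the steroid genes Cyp19a1, Cyp11b1 and Cyp21a1. A further 7 probe sets carried a P450 symbol joined to another symbol and were not used, so Cyp2b1 and Cyp2b2 are not reported. Each gene is given by its probe set of the highest mean over all arrays.

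The arrays measured testis RNA of single male Wistar Han rats on Affymetrix arrays of the rat genome. Exposure was by feeding and ran from gestation day 6 to postnatal day 92, when the testis was taken. The groups were Control (0 ppm, 6 arrays), M500 and M2000 (myclobutanil at 500 and 2000 ppm, 3 and 5 arrays), P500 and P2500 (propiconazole at 500 and 2500 ppm, 4 and 5 arrays), and T500 and T1800 (triadimefon at 500 and 1800 ppm, 4 arrays each). Each array comes from 1 animal, but litters are not given in the sources used here, so p-values measure the spread between these animals, some of which may be litter mates. The deposited values are scores on a log-like scale of unstated base, in which 0 is about the middle of an array. All values below are scores after quantile normalization between arrays, and differences are in score units and are no folds. Scores of different genes come from different probes and are not compared as transcript levels.

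P450 enzymes are haem proteins that insert an oxygen atom into small molecules. Members of families 1 to 3 mostly oxidise drugs, pollutants and other foreign compounds in the liver, family 4 enzymes hydroxylate fatty acids, and others work on sterols, steroids and vitamins. Triazoles bind the haem iron of P450 enzymes, and in rat liver several of them are known to switch on P450 genes through nuclear receptors. The testis makes its own steroid P450 enzymes in Leydig cells but is known for little of the liver type.

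The testis label was checked against its markers. All 9 measured germ cell markers, such as the protamine genes, lay above bioB on all 31 arrays. BioB is the hybridisation control of the lowest concentration and serves here as a floor. The 1 measured epididymis marker, 3 kidney and 4 macrophage markers lay below it on every array. Of 5 measured Sertoli cell markers 1 to 2 lay above it on an array, and of 6 Leydig cell markers 1 to 5. A score below bioB therefore does not show that a cell type is absent. The beta-actin gap, the score of the 3' minus the 5' control probe set, is larger where less of the 5' end is left. It ran from 0.704 to 1.67 and exceeded 1.4 on 5 arrays (replicates 02 and 06 of Control, 04 of M500, and 05 of both M2000 and P2500). Animal numbers fell into an earlier and a later series, and the later one held 3 Control and 3 T1800 arrays only.

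Replicates 02, 03 and 04 of P2500 stood apart. On these 3 arrays the median of 19 hepatocyte markers was 1.14 to 1.15, against -0.237 to 0.0615 on the other 28, and albumin scored 3.89 to 4.15 against -0.124 to 2.29. Germ cell marker medians were 4.04 to 4.13 on the 3 arrays and 3.79 to 4.31 on the others. The main results on P2500 are therefore given with and without them. In whole tissue, fewer cells of a type and less RNA per cell cannot be told apart.

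The 4 genes first named for this group are shown by their promoters, since 3 of them are typical liver genes and Cyp2g1 is not. The 250 bases before the start of each gene are from RefSeq on the GRCr8 assembly, printed 5′ to 3′ on the strand of the gene. Capitals mark matches, on either strand, to 1 of 5 motifs searched by their letters: the TATA box (TATAAA), a site of the liver factor HNF4 (CAAAGTCCA), the HNF1 site (by its name alone), a CEBP site (TTGCGCAA) and a nuclear receptor half-site (AGTTCA, or TGAACT when it lies on the other strand). Cyp2g1 lies at chr1:91273059-91273308 (plus strand), Cyp2c11 at chr1:246174966-246175215 (plus), Cyp2e1 at chr1:205269717-205269966 (plus) and Cyp3a23-3a1 at chr12:14398804-14399053 (minus).
Cyp2g1: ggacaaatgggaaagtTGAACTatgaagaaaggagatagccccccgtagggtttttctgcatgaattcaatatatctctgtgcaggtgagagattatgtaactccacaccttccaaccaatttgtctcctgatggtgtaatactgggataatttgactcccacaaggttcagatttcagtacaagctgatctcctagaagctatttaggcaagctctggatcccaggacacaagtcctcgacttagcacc
Cyp2c11: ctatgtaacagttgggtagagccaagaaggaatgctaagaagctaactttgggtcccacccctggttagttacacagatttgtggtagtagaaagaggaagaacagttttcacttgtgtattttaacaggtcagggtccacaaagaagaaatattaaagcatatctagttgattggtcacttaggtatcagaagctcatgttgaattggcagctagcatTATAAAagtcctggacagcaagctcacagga
Cyp2e1: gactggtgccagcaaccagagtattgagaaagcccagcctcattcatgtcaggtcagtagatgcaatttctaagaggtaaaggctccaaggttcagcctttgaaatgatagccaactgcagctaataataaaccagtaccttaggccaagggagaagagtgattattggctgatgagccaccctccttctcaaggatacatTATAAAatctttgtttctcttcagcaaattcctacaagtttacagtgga
Cyp3a23-3a1: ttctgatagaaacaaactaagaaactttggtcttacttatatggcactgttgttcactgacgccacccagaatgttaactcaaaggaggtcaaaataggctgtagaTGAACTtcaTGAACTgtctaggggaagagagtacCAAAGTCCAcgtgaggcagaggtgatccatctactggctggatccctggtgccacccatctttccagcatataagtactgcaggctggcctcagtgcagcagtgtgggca

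The promoter of Cyp2c11 holds a TATA box 31 to 26 bases before the start, and that of Cyp2e1 holds one at 49 to 44. Cyp3a23-3a1 holds the HNF4 letters at 110 to 102 and a pair of half-sites at 144 to 139 and 135 to 130. Cyp2g1 holds only a half-site, at 234 to 229. Of the 54 genes, 43 matched a promoter in the table. Among these, 13 of 43 (30.2%) held the TATA letters, against 12.9% of all 33469 promoters of the same length, and 12 of 43 (27.9%) held the half-site, against 12.2%. The HNF4 letters were in 2 of 43 (4.65%), against 0.338%, and the HNF1 and CEBP letters were in 0 of 43, against 0.00299% and 0.14%. These are matches of letters and not sites shown to be used.

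**Figure D1:**
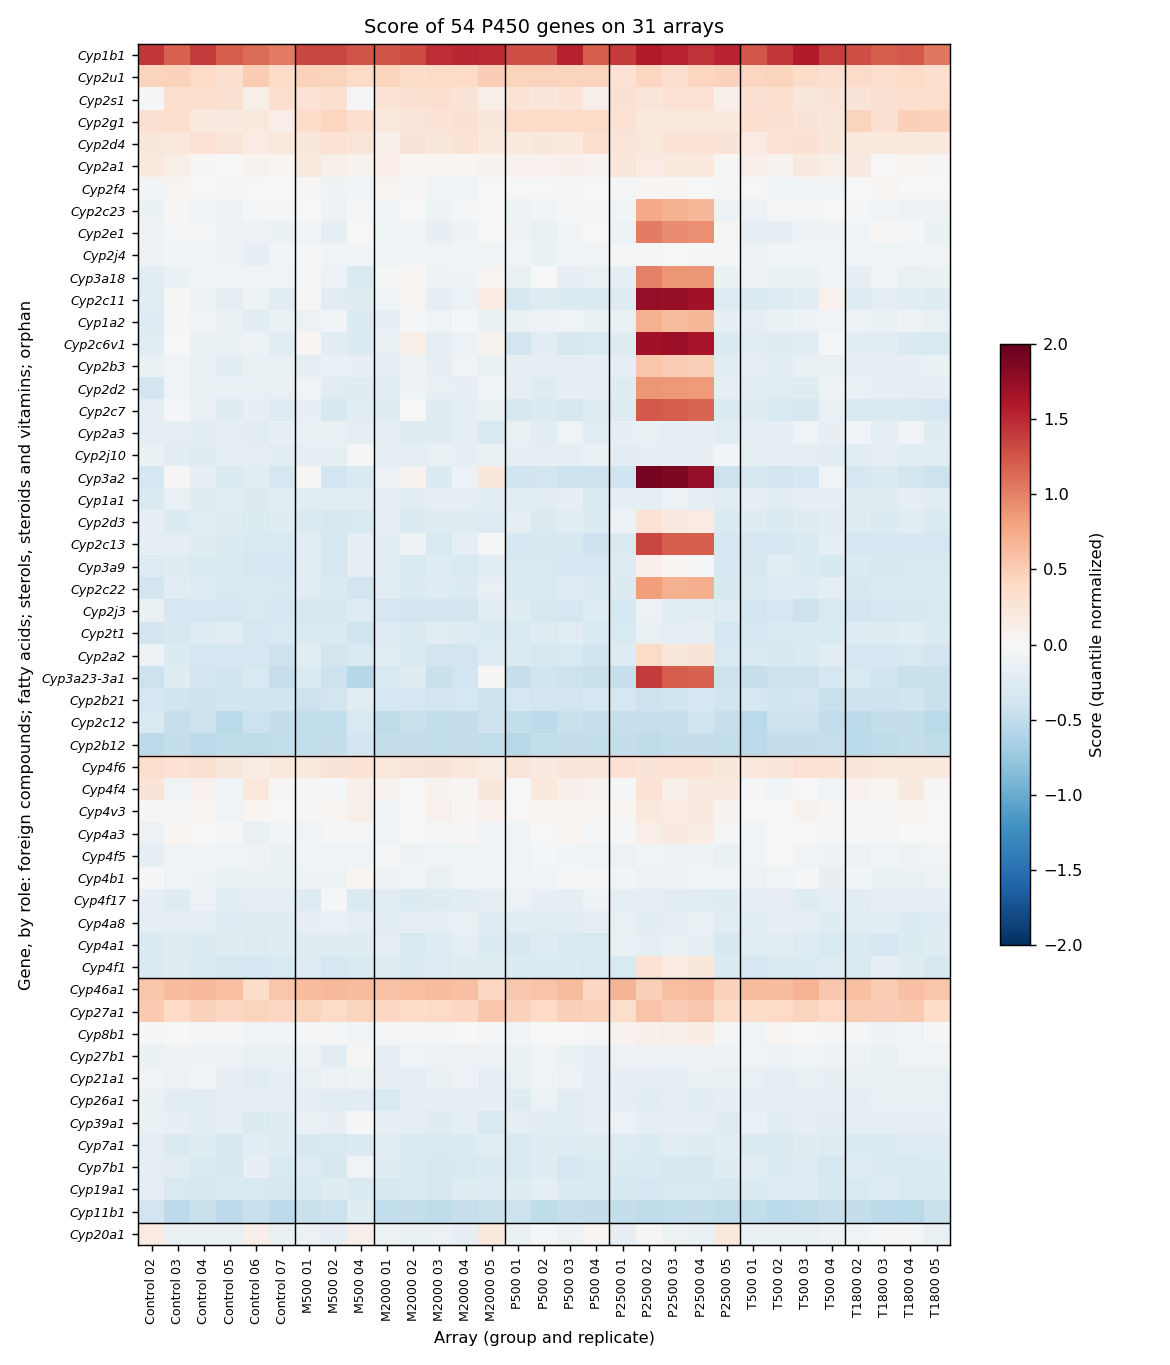
Score of each of the 54 P450 genes (rows, by role and then by Control mean) on each of the 31 arrays (columns, by group), as colour. In P2500 replicates 02 to 04, 18 of 32 foreign-compound genes (families 1 to 3) lie above every other array. Some of the 18 do so at low scores (Cyp2t1 averaged -0.173). The top row, Cyp1b1, is high on every array.

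Most of these genes gave low scores in testis. On 26 of the 28 arrays outside P2500 replicates 02 to 04, 1 of the 54 genes lay above bioB. That gene was Cyp1b1, an oxidase of oestrogens and of polycyclic hydrocarbons that is known from steroid-making tissues. On these 26 arrays 11% to 17.6% of all probe sets lay above bioB. On Control replicate 02 and M500 replicate 04 none of the 54 genes did (6.32% and 6.54% of all probe sets). BioB itself scored 1.56 and 1.54 on these 2 arrays, and 0.733 to 1.12 on the others. Cyp1b1 scored 1.42 and 1.26 there. On P2500 replicates 02, 03 and 04, 11, 10 and 10 genes lay above bioB (16.4%, 17% and 15.4% of all probe sets). Most differences below are therefore between scores under the lowest control, where signal over background limits what can be seen.

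The 8 genes with the highest mean over the Control arrays were Cyp1b1 (1.23 ± 0.151, SD, n = 6), Cyp46a1 (0.564 ± 0.102), Cyp27a1 (0.444 ± 0.0466), Cyp2u1 (0.416 ± 0.0666), Cyp4f6 (0.255 ± 0.0748), Cyp2s1 (0.234 ± 0.158), Cyp2g1 (0.231 ± 0.0769) and Cyp2d4 (0.226 ± 0.039). Cyp46a1 and Cyp27a1 hydroxylate cholesterol, Cyp2u1 and Cyp4f6 act on fatty acids, and Cyp2s1 and Cyp2d4 are foreign-compound enzymes also found outside the liver. None of the 7 other than Cyp1b1 lay above bioB. Where a gene had several probe sets they could disagree: those of Cyp2d4 averaged 0.231 and -0.14, and those of Cyp4v3 averaged 0.0419 and -0.43.

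Across the 12 comparisons, no P450 probe set passed an adjusted p of 0.05 in limma's test (Benjamini-Hochberg over all probe sets). Over all 31042 probe sets, 2 (0.00644%) passed in T1800 against Control, 1 (0.00322%) passed in T1800 against T500 and 0 (0%) in each of the other comparisons. At an unadjusted p under 0.05, the 60 P450 probe sets gave 6 in M500 against Control (9% of all probe sets), 1 in M2000 (1.7%), 1 in P500 (3.36%), 1 in T500 (7.62%) and 1 in T1800 (5.84%). In P2500 against Control the count was 27 (4.15% of all probe sets). In this fit the P450 shares apart from that of P2500 were near or below the share over the whole array. Without P2500 replicates 02 to 04, the count in P2500 against Control was 2 of 60 (3.82% of all probe sets), and the others were 8 in M500, 5 in M2000, 5 in P500, 1 in T500 and 2 in T1800 (8.44%, 1.55%, 3.19%, 6.89% and 5.29% of all probe sets). In that fit the P450 shares of M500, M2000 and P500 lay above those of the whole array.

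The median difference from Control over the 54 genes was 0.00736 in M500, 0.0127 in M2000, 0.00255 in P500, 0.00276 in T500 and -0.0127 in T1800. Over all probe sets these medians were 0.00014, -9.42e-05, 0.000708, -0.00119 and -0.00289, and in P2500 -0.00358 with all arrays and -0.000755 without replicates 02 to 04. Over the 54 genes the median in P2500 was 0.0554 with all 5 arrays, with 45 of 54 genes above Control, and 0.000702 with 27 of 54 genes above Control when only replicates 01 and 05 were used. The shift of the group was thus seen only with the 3 arrays.

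**Figure D2:**
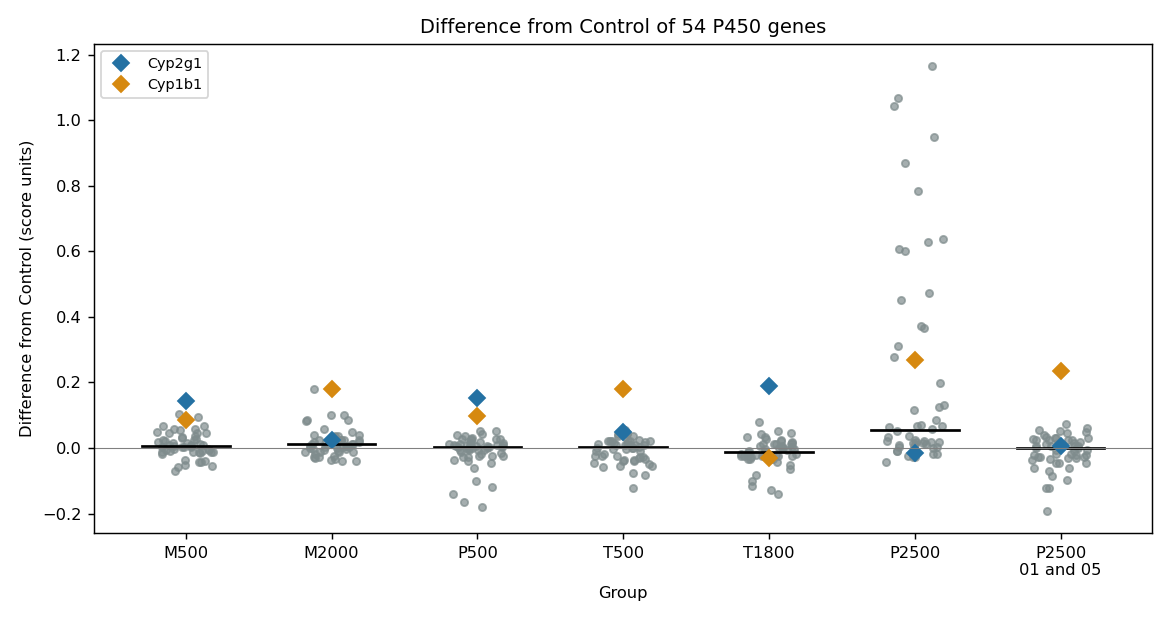
Difference from Control, in score units, of each of the 54 P450 genes in the 6 exposed groups, with P2500 shown with all 5 arrays and with replicates 01 and 05 alone. Points are genes, the black line is their median, and diamonds mark Cyp2g1 and Cyp1b1. The upper tail of P2500, up to 1.16, is missing when replicates 02 to 04 are left out, where the highest difference is 0.234.

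P2500 replicates 02 to 04 scored high for P450 genes that are typical of adult liver. Of the 54 genes, 22 (40.7%) scored above every other array on all 3, against 349 of 31042 probe sets (1.12%). Of the genes of families 1 to 3, called foreign-compound genes here although some act on other substrates, 18 of 32 did so. Of the family 4 genes 3 of 10 did so, and of the sterol and vitamin genes 1 of 11. All 19 hepatocyte markers did so as well. The arrays were singled out by their liver transcripts, so this is a description with no test.

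Cyp3a2, a male-typical steroid and drug hydroxylase of rat liver, scored 1.91, 1.87 and 1.76 on replicates 02, 03 and 04. It scored -0.403 on replicate 01 and -0.431 on replicate 05, and -0.432 to 0.22 on all 28 other arrays. The 3 arrays lay far above every other array, and replicates 01 and 05 lay among the lowest.

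Cyp2c11, the main male-specific testosterone hydroxylase of rat liver, scored 1.75, 1.75 and 1.68 on replicates 02, 03 and 04, and -0.258 and -0.253 on 01 and 05. The highest of the other arrays was M2000 replicate 05 at 0.171. Cyp3a23-3a1, the classic target of the pregnane X receptor in rat liver, scored 1.39, 1.21 and 1.17 on the 3 arrays and -0.454 and -0.427 on replicates 01 and 05. For both genes no other array came near the 3. With all 5 arrays of P2500 the differences from Control were 1.16 for Cyp3a2 (SE 0.301, limma adjusted p = 0.115), 1.07 for Cyp2c11 (SE 0.262, adjusted p = 0.0967) and 0.95 for Cyp3a23-3a1 (SE 0.227, adjusted p = 0.0919). Without replicates 02 to 04 the sign turned in all 3, to -0.192, -0.121 and -0.0707 (limma adjusted p = 1 for each).

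Cyp2e1, which oxidises ethanol and small solvents, scored 1.02, 0.942 and 0.911 on replicates 02 to 04, and -0.124 and 0.0161 on 01 and 05. Its other arrays reached 0.0271 at most. In the limma fit with all 5 P2500 arrays it differed from Control by 0.639 (SE 0.135, adjusted p = 0.073) and was, with Cyp2d3 (0.278, SE 0.0589, adjusted p = 0.073), the P450 gene of the smallest p. Without replicates 02 to 04 these differences were 0.0318 and 0.0338 (limma adjusted p = 1 for both). Cyp2d3 scored 0.284, 0.174 and 0.157 on the 3 arrays and -0.116 and -0.289 on replicates 01 and 05. The group's mean thus lay between 2 separate sets of arrays. Leaving out P2500 replicate 01 or 05, either of which widens the share of the 3 arrays, gave 20 P450 probe sets at an adjusted p under 0.05. The share over all probe sets in those fits is not given here.

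**Figure D3:**
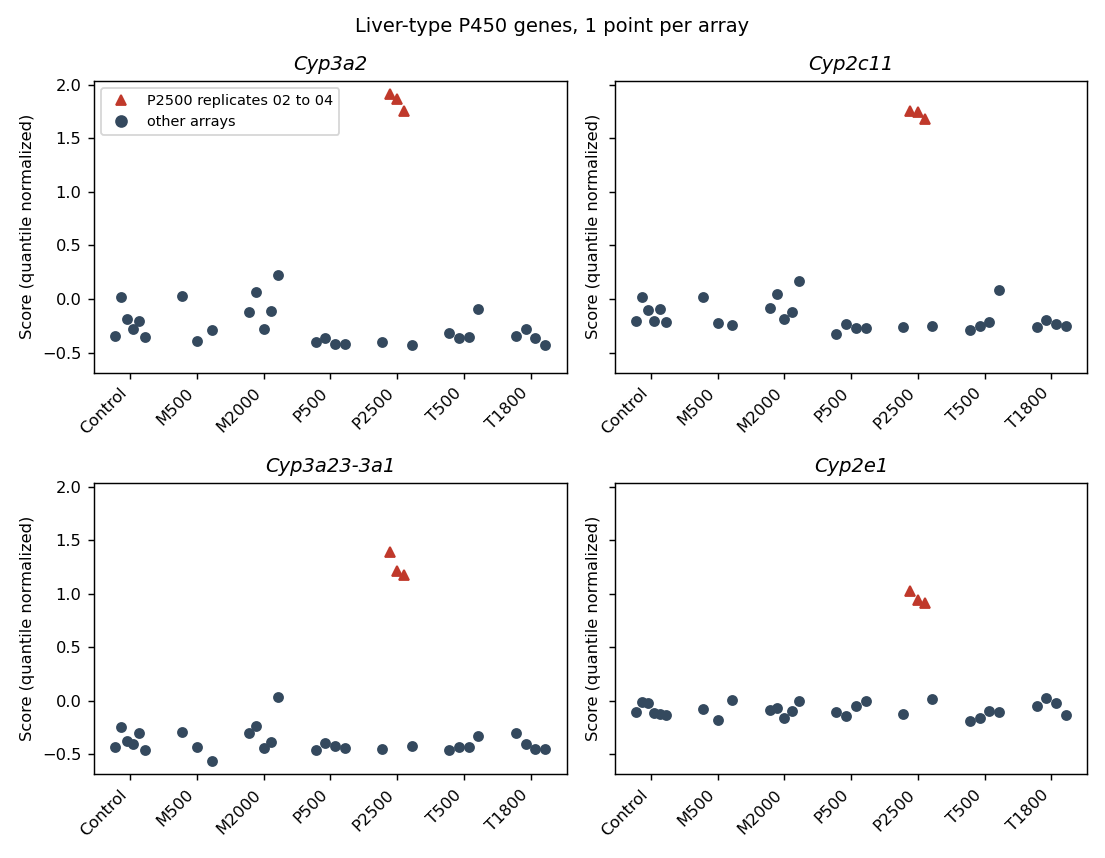
Score of 4 liver-type P450 genes on each array, by group, with P2500 replicates 02 to 04 as triangles and all other arrays as circles. The triangles lie between 0.911 and 1.91, and no circle lies above 0.22.

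Most other genes high on the 3 arrays are also known from liver. The means over replicates 02 to 04 were 1.68 for Cyp2c6v1, 1.24 for the male-specific Cyp2c13 and 1.2 for Cyp2c7, against -0.263, -0.314 and -0.272 over replicates 01 and 05. Cyp2c7 is known as higher in female rat liver. Cyp3a18, Cyp2d2, Cyp2c22, Cyp2c23 (an arachidonic acid epoxygenase) and Cyp1a2 (a caffeine and arylamine oxidase) averaged 0.922, 0.872, 0.756, 0.717 and 0.671. Cyp2b3, the male-typical Cyp2a2, Cyp4f1 and Cyp8b1, a sterol hydroxylase of bile acid synthesis, averaged 0.512, 0.287, 0.223 and 0.122. The smallest margin among the 22 was that of Cyp2j4, with a lowest score of -0.0283 on the 3 arrays against a highest of -0.0335 elsewhere.

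Some genes known from liver did not separate the 3 arrays from the others. Cyp2c12, the female-specific counterpart of Cyp2c11, averaged -0.438 on the 3 arrays and -0.464 on the 28 others. Cyp7a1, the first enzyme of bile acid synthesis, averaged -0.248 against -0.261, and Cyp1a1, the main target of the aryl hydrocarbon receptor, averaged -0.164 against -0.215, with replicate 03 (-0.123) above every other array (-0.149 at most). Cyp1b1 and Cyp46a1 averaged 1.52 and 0.57 on the 3 arrays, inside the range of the other arrays (1.04 to 1.59 and 0.372 to 0.692).

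A much smaller liver-type signal varied between the remaining arrays. Over the 26 arrays outside P2500, 9 of the 10 genes with the widest gap within P2500 correlated with the hepatocyte marker median at an adjusted permutation p under 0.05 (100000 permutations, 54 genes tested), as did 2 of the 44 other genes, Cyp1a2 and Cyp2c23. For Cyp2c6v1 Pearson's r was 0.835 (permutation p = 1e-05, adjusted p = 0.00018) and Spearman's rho 0.766 (permutation p = 4e-05, adjusted p = 0.00108). For Cyp2c11 r was 0.834 (permutation p = 1e-05, adjusted p = 0.00018) and rho 0.776 (permutation p = 2e-05, adjusted p = 0.00108), and 1e-05 is the smallest p these permutations can give. Cyp2e1 was the exception among the 10 (r = 0.2, permutation p = 0.33, adjusted p = 0.509, and rho = 0.203, permutation p = 0.32, adjusted p = 0.455).

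Within groups, with each group's mean removed, 7 of the 10 genes and 0 of the 44 others passed. Without the 2 arrays farthest from the median of the markers, Control replicate 03 and M2000 replicate 02, r was 0.784 for Cyp2c6v1 and 0.796 for Cyp2c11, and the 10 genes ran from 0.0887 to 0.796. The arrays high in both included M2000 replicate 05 (albumin 2.29, Cyp2c11 0.171), T500 replicate 04 (1.66 and 0.0804) and M500 replicate 01 (1.62 and 0.0208). They also included Control arrays, with albumin between 0.132 and 1.65 over the 6.

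**Figure D4:**
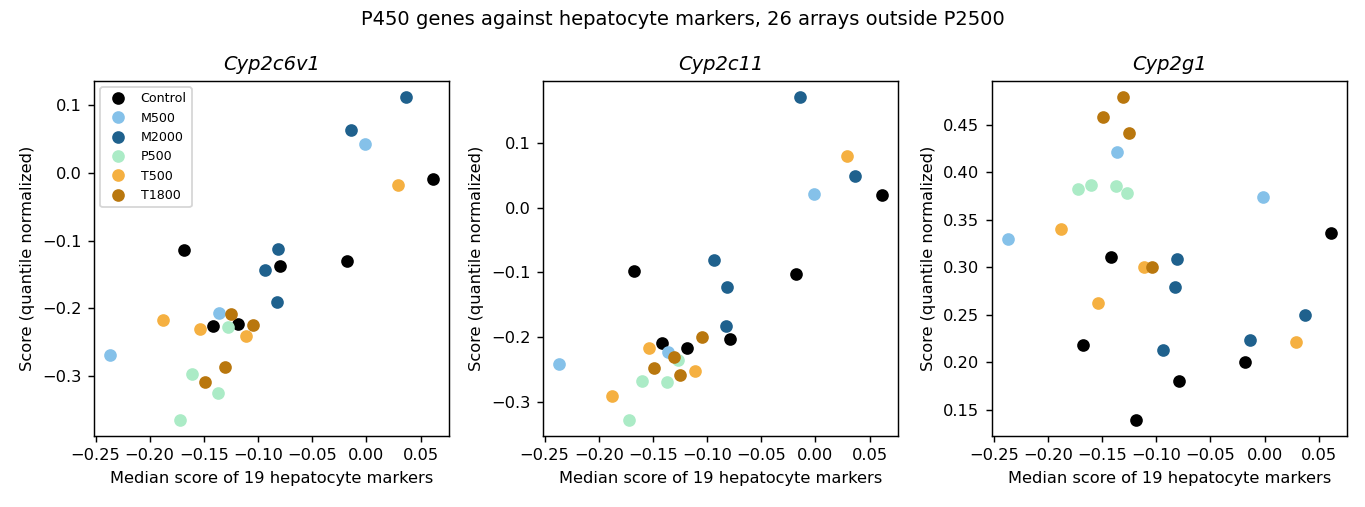
Score of Cyp2c6v1, Cyp2c11 and Cyp2g1 against the median score of 19 hepatocyte markers on the 26 arrays outside P2500, coloured by group. Cyp2c6v1 and Cyp2c11 climb with the markers (r = 0.835 and 0.834), while the 3 arrays of highest Cyp2g1, all in T1800, have marker medians of -0.149 to -0.125.

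Scores of some of the same genes were also compared between groups. In P500, Cyp2c11 scored -0.328, -0.235, -0.27 and -0.268, and Control ran from -0.217 to 0.0204 with a median of -0.152. Cyp3a2 scored -0.406, -0.366, -0.425 and -0.421 in P500, and in Control from -0.353 to 0.0193 with a median of -0.242. For both, and for Cyp2c6v1 and Cyp2c13, all 4 P500 arrays lay below all 6 Control arrays.

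Together with Cyp2g1, which lay above, these were the 5 of 54 genes whose P500 and Control arrays did not overlap (0.677% of all probe sets). In the fit without P2500 replicates 02 to 04, limma gave a difference of -0.18 for Cyp3a2 (SE 0.0849, unadjusted p = 0.0451, adjusted p = 1) and -0.164 for Cyp2c6v1 (SE 0.0616, unadjusted p = 0.014, adjusted p = 1). Albumin scored 0.0157 to 0.347 in P500 and 0.132 to 1.65 in Control, and the hepatocyte median -0.172 to -0.127 against -0.168 to 0.0615. Beyond the correlation above, a fit with the hepatocyte marker median as a covariate was run. No P450 probe set passed the adjusted threshold with or without that covariate, so these calls cannot show the part of the liver transcripts in these differences. That part was not tested further.

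T1800 showed the same direction for Cyp2c7 and Cyp2c13. Cyp2c7 scored -0.311, -0.282, -0.306 and -0.356 in T1800 and -0.26 to -0.0455 in Control, and Cyp2c13 -0.331, -0.338, -0.336 and -0.337 against -0.31 to -0.189. These 2 of 54 genes did not overlap between the groups (1.94% of all probe sets). The difference of Cyp2c7 was -0.139 (SE 0.0454, limma adjusted p = 0.793) without P2500 replicates 02 to 04. P500, T1800 and every other exposed group were set against the same 6 Control arrays.

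Cyp2g1 encodes a P450 best known from the olfactory lining of the nose, where it hydroxylates steroids. On the Control arrays it scored 0.139 at the lowest, 0.209 at the median and 0.336 at the highest.

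In M500 Cyp2g1 scored 0.374, 0.422 and 0.33, and in P500 0.382, 0.379, 0.386 and 0.387. In T1800 it scored 0.442, 0.301, 0.479 and 0.459. All 4 P500 arrays lay above every Control array, and 2 of 3 M500 and 3 of 4 T1800 arrays did.

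The remaining groups overlapped with Control. Cyp2g1 scored 0.213, 0.249, 0.28, 0.308 and 0.223 in M2000, and 0.341, 0.3, 0.262 and 0.221 in T500. In P2500 it scored 0.283 on replicate 01, 0.191, 0.203 and 0.207 on replicates 02 to 04, and 0.189 on replicate 05. Here the 3 liver-type arrays lay within the spread of the other arrays.

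The difference from Control of Cyp2g1 was 0.189 in T1800 (SE 0.0354, limma unadjusted p = 1.28e-05, adjusted p = 0.105), with all 4 arrays above the Control mean. It was 0.152 in P500 (SE 0.0354, limma unadjusted p = 0.000204, adjusted p = 1), with 4 of 4 above. In M500 it was 0.145 (SE 0.0388, limma unadjusted p = 0.000927, adjusted p = 0.204), with 3 of 3 above. None passed the threshold over all probe sets, and in each of these 3 comparisons Cyp2g1 had the smallest p of the P450 genes that lay above Control.

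The call on Cyp2g1 in T1800 depended on single choices. It passed with the animal number series as a block (difference 0.209, limma adjusted p = 0.0364), without Control replicate 03 (0.21, adjusted p = 0.0465), without T1800 replicate 03 (0.229, adjusted p = 0.00855) and with array weights (0.235, adjusted p = 0.000156). Array weights also took it past the threshold in M500 (0.197, adjusted p = 0.0426) and P500 (0.194, adjusted p = 0.0197). In P500 it also passed without the 5 arrays of actin gap above 1.4 (0.169, adjusted p = 0.0464).

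The animal series changed the size of these differences. Among the later animals, the 3 T1800 arrays had a mean Cyp2g1 score of 0.413 ± 0.0977 (SD) and the 3 Control arrays one of 0.179 ± 0.0396, which differ by 0.234 (limma adjusted p = 0.817). In the earlier series the 3 Control arrays averaged 0.282 ± 0.0722, and the differences were 0.101 in P500 (limma adjusted p = 0.777) and 0.093 in M500 (adjusted p = 0.682). In that series M2000 differed from Control by -0.0277, against 0.0239 with all arrays, T500 by -0.00138, and the single T1800 array by 0.159.

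For Cyp2g1 the higher dose scored lower for 2 compounds and higher for triadimefon, and no difference passed the adjusted threshold. P2500 against P500 gave -0.168 (SE 0.0368, limma unadjusted p = 9.9e-05, adjusted p = 0.147) and M2000 against M500 gave -0.121 (SE 0.0401, unadjusted p = 0.00564, adjusted p = 0.45), with no overlap between the doses in either pair. T1800 against T500 gave 0.139 (SE 0.0388, unadjusted p = 0.00135, adjusted p = 1). Without P2500 replicates 02 to 04 the propiconazole difference was -0.147 (SE 0.05, limma adjusted p = 1).

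Of the 54 genes, 4 did not overlap between P2500 and P500 (1.22% of all probe sets; 7 and 12.6% without P2500 replicates 02 to 04), 6 between M2000 and M500 (3.59%) and 2 between T1800 and T500 (4.46%). At an unadjusted p under 0.05 the 60 probe sets gave 26, 4 and 3 in these pairs (3.83%, 7.55% and 1.97% of all probe sets). Without P2500 replicates 02 to 04 they gave 2, 6 and 4 (4.26%, 7.09% and 1.81%).

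The 3 compounds share a triazole ring and otherwise differ, with a nitrile in myclobutanil, a dioxolane ring in propiconazole and a ketone in triadimefon. At the shared dose of 500 ppm, 0 of 60 P450 probe sets passed in any of the 3 pairs. At an unadjusted p under 0.05 there were 4 in M500 against P500 (7.48% of all probe sets), 3 in M500 against T500 (6.69%) and 2 in P500 against T500 (5.08%). Without P2500 replicates 02 to 04 in the fit they were 5, 2 and 2 (6.96%, 6.12% and 4.69%). For Cyp2g1 the difference between P500 and T500 was 0.102 (95% interval 0.0225 to 0.182, limma adjusted p = 0.888), and the 4 P500 arrays lay above the 4 T500 arrays. Between M500 and T500 it was 0.0944 (95% interval 0.00828 to 0.181, limma adjusted p = 0.733).

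**Figure D5:**
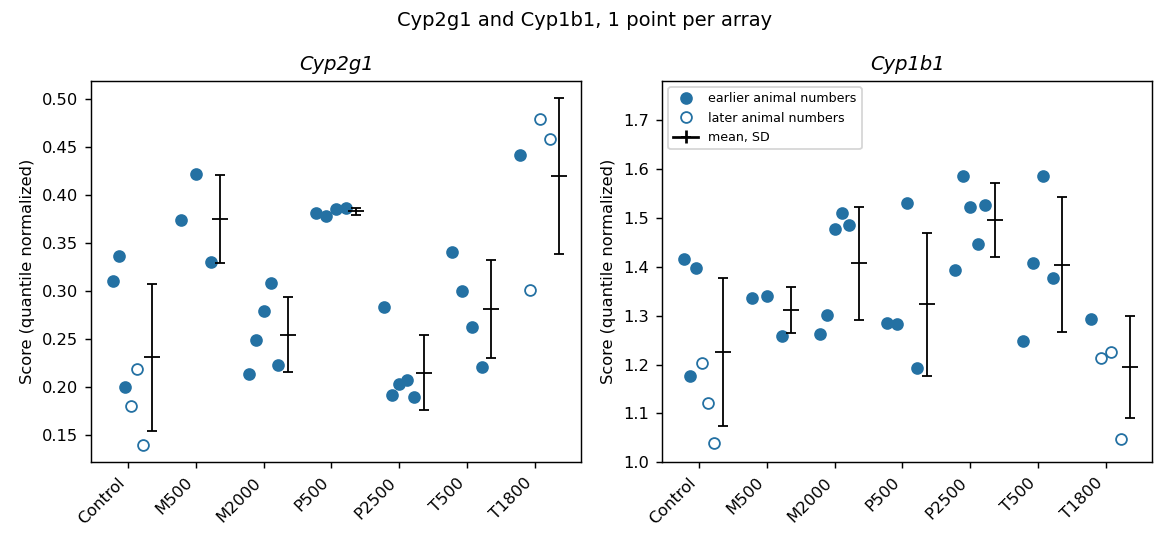
Score of Cyp2g1 and Cyp1b1 on each array by group, filled for the earlier and open for the later animal numbers, with the mean and SD of each group beside its points. The P500 arrays of Cyp2g1 lie between 0.379 and 0.387, above all Control arrays (0.139 to 0.336), and the later Control arrays of Cyp1b1 lie between 1.04 and 1.2.

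Cyp1b1 was the only gene of the set above bioB in most testes. It scored 1.04 to 1.42 in Control, with a median of 1.19. In P2500 it scored 1.39, 1.59, 1.52, 1.45 and 1.53, with replicate 05 among the 3 liver-type arrays and replicate 01 below them. In M2000 it scored 1.26, 1.3, 1.48, 1.51 and 1.49, in T500 1.25, 1.41, 1.59 and 1.38, and in T1800 1.29, 1.21, 1.23 and 1.05.

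All groups overlapped with Control for Cyp1b1. The difference was 0.27 in P2500 (SE 0.07, limma adjusted p = 0.117) and 0.234 (SE 0.0982, adjusted p = 1) with replicates 01 and 05 alone. It was 0.181 in M2000 (SE 0.07, limma adjusted p = 1) and 0.179 in T500 (SE 0.0746, adjusted p = 0.613). Between T1800 and T500 it was -0.209 (SE 0.0817, limma adjusted p = 1), and -0.0721 (adjusted p = 1) with the animal number series as a block.

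These differences of Cyp1b1 were smaller within the earlier animal series, whose 3 Control arrays averaged 1.33 ± 0.133 (SD) against 1.12 ± 0.0819 in the later one. Within it, M2000 differed by 0.0772 and T500 by 0.0749 (limma adjusted p = 1 and 0.827). With the series as a block the difference of P2500 was 0.178 (SE 0.0723, limma adjusted p = 0.836). On the scores as deposited that of M2000 was 0.0493 (limma adjusted p = 0.999).

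The other genes chosen by the smallest p were lower in score. Cyp11b1, the adrenal enzyme of corticosterone synthesis, scored -0.438, -0.426 and -0.245 in M500 and -0.528 to -0.387 in Control, with a median of -0.485. The difference was 0.105 (SE 0.0336, limma adjusted p = 0.281), and the highest M500 array was replicate 04, whose actin gap of 1.6 was among the 5 above 1.4. Without that array the difference was 0.043 (limma adjusted p = 0.826). M500 against P500, M500 against T500 and M2000 against M500 gave 0.1, 0.129 and -0.109 (limma adjusted p = 0.528, 0.688 and 0.445), and without that array 0.0378, 0.0666 and -0.0468. Cyp39a1, an oxysterol hydroxylase, scored -0.133, -0.165 and -0.037 in M500, again with its highest score on replicate 04, and differed from Control by 0.0931 (SE 0.0327, limma adjusted p = 0.35).

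Cyp7a1 differed from Control by -0.0531 in M500 (SE 0.0244, limma adjusted p = 0.522). Cyp4f4, a leukotriene and fatty acid hydroxylase, differed by -0.122 in T500 (unadjusted p = 0.0535, limma adjusted p = 0.663). Cyp4f5 differed by 0.0392 in P500 and 0.0373 in T500, and Cyp4a1, a peroxisome proliferator target of liver, by -0.0375 in P500 (limma adjusted p = 1, 0.666 and 1). Cyp2f4, a lung-type P450, differed by -0.0426 in M500 and -0.0477 in T500 (limma adjusted p = 0.719 and 0.666).

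The sterol, steroid and vitamin genes numbered 11. At an unadjusted p under 0.05 against Control, 3 of 11 passed in M500 (Cyp11b1, Cyp39a1 and Cyp7a1), against 9% of all probe sets, 1 of 11 in P2500 (Cyp8b1), against 4.15%, and 0 in M2000, P500, T500 and T1800 (1.7%, 3.36%, 7.62% and 5.84%). Cyp8b1 differed by 0.116 (limma adjusted p = 0.081) with all P2500 arrays and by 0.0488 (adjusted p = 1) without replicates 02 to 04. The group means of Cyp46a1, the cholesterol hydroxylase best known from brain, ran from 0.541 in P500 to 0.631 in M500, with an SD of 0.102 in Control. Those of Cyp27a1 ran from 0.404 in T500 to 0.472 in T1800, with an SD of 0.0466 in Control. Cyp19a1, the aromatase that makes oestrogens, averaged -0.314 in P2500 to -0.247 in P500, and -0.289 in Control. For these 3 genes the order of the group means lay within the spread of the arrays.

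In comparisons between exposed groups, Cyp2d3 gave 0.282 in P2500 against P500 (limma adjusted p = 0.147), and 0.0374 (adjusted p = 1) without replicates 02 to 04. Cyp7a1 gave 0.0449 in M2000 against M500, -0.0386 in M500 against P500 and -0.0349 in M500 against T500, and Cyp4a1 gave -0.0495 in P500 against T500. Their limma adjusted p lay between 0.725 and 0.888.

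Few genes separated a group from Control. Cyp2d3 in M500 was 1 of 54 genes without overlap (2.01% of all probe sets) and Cyp2j4 in P2500 was 1 of 54 (0.274%), with differences of -0.0692 and 0.0641 (limma adjusted p = 0.843 and 0.229). With replicates 01 and 05 alone P2500 had 5 of 54 (3.62%), namely Cyp2j4 above Control (0.0544) and Cyp3a2, Cyp2c6v1, Cyp2c11 and Cyp27a1 below it (limma adjusted p = 1 for each). In M2000 and T500 there were 0 of 54 (0.155% and 1.22%). At 500 ppm, 4 did not overlap between M500 and P500 (5.97%), 3 between M500 and T500 (5.43%) and 4 between P500 and T500 (7.22%).

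The next genes by p differed by less than 0.07. They were Cyp1a1 (0.0384), Cyp4f6 (-0.0403) and Cyp2a3 (-0.0403) in M2000, Cyp2c12 (-0.0444) in P500, Cyp7b1 (-0.0425, and -0.0188 without replicates 02 to 04) and Cyp21a1 (-0.0264 and -0.028) in P2500, and Cyp2a3 (0.0518), Cyp2c12 (-0.0654) and Cyp2u1 (-0.0526) in T1800. Their limma adjusted p lay between 0.767 and 1. The median SE of a difference from Control over all 31042 probe sets lay between 0.0327 and 0.0382 in the 6 groups. It limits the size of difference these groups could show. The SE was larger for liver-type genes such as Cyp3a2 and Cyp2c11, as given above.

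Cyp20a1, an orphan P450 of unknown substrate, differed between the arrays of larger and smaller actin gap. On the 5 arrays of actin gap above 1.4 it scored 0.0956 to 0.217, and on the 26 others -0.169 to 0.0394. It was the only 1 of the 54 genes whose 5 arrays all lay above the others (4.72% of all probe sets), and none had all 5 below (4.18%). Cyp2s1 had its lowest scores among these arrays, at -0.0392 in Control replicate 02 and -0.0424 in M500 replicate 04, but overlapped with the rest.

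The genes that serve P450 enzymes were counted from a separate list of electron donors, haem synthesis enzymes, regulators and epoxide hydrolases. Of 33 listed genes 30 were measured, and 0 of 30 passed an adjusted p of 0.05 in any of the 12 comparisons. At an unadjusted p under 0.05, 4 did in M500 against Control, 2 in M2000, 1 in P500, 5 in P2500, 1 in T500 and 2 in T1800. The shares over all probe sets were 9%, 1.7%, 3.36%, 4.15%, 7.62% and 5.84%.

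In P2500 these 5 were Cyb5a, the microsomal cytochrome b5 that hands electrons to P450 enzymes, at 0.392 (limma adjusted p = 0.152), the haem-binding Pgrmc1 at 0.254 (0.531), Fdx1, the electron donor of mitochondrial P450 enzymes, at 0.177 (1), Cyb5r3 at 0.122 (0.508) and Ephx2 at 0.0683 (0.46). Without replicates 02 to 04, 1 of 30 had an unadjusted p under 0.05, and it was none of these 5 but Alas1, the first enzyme of haem synthesis, at -0.148 (limma adjusted p = 1). In M500 they were Vdr, the vitamin D receptor, at -0.0947, Ahrr, a repressor of the aryl hydrocarbon receptor, at 0.0814, Urod of haem synthesis at 0.0982 and Fdx1 at 0.229 (limma adjusted p = 0.201, 0.239, 0.379 and 0.426). Of the 30 genes, 2 scored above every other array on all 3 liver-type arrays, against 1.12% of all probe sets.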

How the data were processed

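Testis RNA of 34 rats was labelled in the series, 1 array per animal, and 31 arrays held values. Control replicate 01, M500 replicate 03 and T1800 replicate 01 were not analysed here. The authors deposited 1 score for each probe set. How probes were summarised and the base of the logarithm are not given in the sources used here. RNA was DNase-treated, column-cleaned and labelled from an oligo-dT primer, per the labels' protocols. Groups were taken from the labels. Scores were quantile normalized over 31099 probe sets, and 57 controls were then dropped. R 4.3.3 with limma 3.58.1 fitted 1 mean per group over all 31 arrays (lmFit, eBayes), with Benjamini-Hochberg adjustment over 31042 probe sets and a threshold of 0.05. The fit was checked on simulated data. Correlations used 100000 permutations (two-sided) in Python 3.11.15 with numpy 2.4.6. Gene names come from the platform annotation, and the symbols of 60 of 60 probe sets matched RefSeq.

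The members and lists were chosen with earlier results of these data known. Genes were named by rule: 4 set genes (Cyp2g1, Cyp2e1, Cyp2c11, Cyp3a23-3a1), the 8 of the highest Control mean, in each comparison with Control the 2 of the smallest p in each direction and in the others the 1, any past the threshold, the 10 of the widest gap within P2500, and fixed sets of receptor targets, sex-specific liver genes, sterol and steroid genes and extrahepatic genes. Cyp2c23, Cyp4f1 and Cyp2t1 fall outside the rule and were chosen after their values were seen. The genes that serve P450 enzymes were planned as counts, and those named were picked by their unadjusted p. Alternatives were the scores as deposited, array weights, only the groups compared, the actin gap as a covariate, leaving out 5 arrays of high actin gap, the animal number series as a block, a filter on bioB, a replicate block, and leaving out P2500 replicates 02 to 04 or any 1 array. For arrays, their number limits the precision.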

Additional observations from a re-analysis of the deposited data

Results flagged for a closer look

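Of 180 pairs of a gene and a group of 4 to 6 arrays (30 genes), 16 held a highest or lowest array that stood apart from the others of its group by Dixon's test at the 95% level. Chance gives about 1 in 20, so several of these are to be anticipated. Of the liver-type genes, Cyp2c6v1 (-0.0185), Cyp3a2 (-0.0911) and Cyp3a18 (-0.0679) each stood highest on T500 replicate 04, whose albumin of 1.66 was also the highest of its group. Cyp3a18 stood highest on P500 replicate 02 (0.0091), again the array of the highest albumin in its group (0.347). Cyp2d2 was lowest on Control replicate 02 (-0.36), an array of actin gap above 1.4. Cyp2c22 was lowest on T1800 replicate 02 (-0.317) and Cyp2c12 highest on P2500 replicate 04 (-0.391).

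Arrays of actin gap above 1.4 held several others. On M2000 replicate 05, Cyp27a1 stood highest (0.55), and Cyp46a1 (0.413) and Cyp2s1 (0.11) stood lowest. Cyp46a1 was lowest on Control replicate 06 (0.372) and Cyp4a1 lowest on P2500 replicate 05 (-0.314). On arrays of smaller gap, Cyp27a1 was lowest on T1800 replicate 05 (0.361), Cyp2f4 highest on T500 replicate 01 (-0.012), Cyp4f6 lowest on P500 replicate 02 (0.182) and Cyp2g1 highest on P2500 replicate 01 (0.283). The part of RNA quality and of liver transcripts in these values was not tested.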

How the results depend on the processing

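With limma's test, the count of P450 probe sets past an adjusted p of 0.05 was 0 in all 12 comparisons and differed from 0 under these alternatives. With array weights it was 28 in P2500 against Control, 23 in P2500 against P500, and 1 each in M500, P500 and T1800 against Control. When the 5 arrays of actin gap above 1.4 were left out it was 21 and 20 in the P2500 comparisons and 1 in P500 against Control. The actin gap as a covariate gave 3 in P2500 against Control, and the animal number series as a block gave 1 in T1800 against Control. Leaving out 1 array gave 0 to 20 in P2500 against Control (20 without P2500 replicate 01, 20 without replicate 05), 0 to 20 in P2500 against P500 (18 and 20) and 0 to 1 in T1800 against Control (1 without Control replicate 03 or T1800 replicate 03). Of the alternative counts, 212 stayed at 0 and 16 did not. The shares over all probe sets under these alternatives are not given here, so the counts are not read as particular to P450 genes. Those of P2500 also include replicates 02 to 04, which were singled out by their liver transcripts. For 36 named results, 640 alternative values kept direction and side of the threshold, 25 passed it and 1 turned: Cyp2c12 in P500 against Control was 0.00355 with array weights, and the cause was not tested. In the hepatocyte correlation, r of Cyp3a18 was 0.501 on the 22 arrays of smaller actin gap and no longer passed (adjusted permutation p = 0.0823). With a replicate block the count was 0 in all 12 comparisons. The numbers do not pair the animals: 73 same-numbered pairs of arrays had a median correlation of 0.0388, others 0.0372, and 7 of 31 arrays correlated best with their own number. The hepatocyte marker median as a covariate in the fit without P2500 replicates 02 to 04, a pair of choices changed together and added after seeing the data, gave 0. Nearly all P450 scores lay below bioB, so signal over background limits every comparison except that of Cyp1b1.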
